A study of Drosophila melanogaster with 8 samples.

Results

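The proteasome is the protease that degrades most ubiquitin-tagged proteins of a eukaryotic cell. Its 20S core is a barrel of stacked alpha and beta rings, with the protease sites inside the beta rings and a gate formed by the alpha rings. The 19S regulatory particle caps the barrel: its base holds a ring of ATPases (Rpt subunits) that unfold substrates and the scaffolds Rpn1 and Rpn2, and its lid holds scaffold subunits and the deubiquitinase Rpn11. In flies many subunits have paralogues known from the male germ line, which carry T or R at the end of the symbol.

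The genes described here were chosen by symbol (Prosalpha, Prosbeta, Rpt or Rpn followed by a number), after Rpn1 had been seen to fall in the double knockdown, and the question was whether the other subunits moved with it. Of 11983 genes tested, 40 met the rule: 26 standard subunits and 14 paralogues. Each was read by 1 probe set, so the rule of taking the brightest probe set decided nothing. The standard subunits comprised 12 of the 20S core (Prosalpha2 to Prosalpha7 and Prosbeta2 to Prosbeta7) and 14 of the 19S regulatory particle, 7 in the base (Rpt2 to Rpt5, Rpn1, Rpn2 and Rpn13) and 7 in the lid (Rpn3, Rpn5, Rpn6, Rpn7, Rpn8, Rpn11 and Rpn12). The other 8 RefSeq symbols that meet the rule were not tested: Prosbeta1, Rpt1, Rpt6, Rpt6R, Rpn9 and Rpn10 were not analysed here, and Prosalpha1 and Prosalpha1R share a probe set.

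RNA came from Kc cells, a female Drosophila melanogaster line, after RNA interference (RNAi) against Sxl and Msl2 together (2 arrays), against Sxl (3 arrays), or against GFP, a gene that fly cells lack, as the control (3 arrays). SXL blocks the making of MSL2, which the male dosage compensation complex needs in order to raise transcription of the X, so that Sxl RNAi releases the complex and the double knockdown removes MSL2 again. The study's methods name 1 amplicon against Sxl for these arrays and give none against Msl2. For the RNAi against either gene, an effect through its target and one through other transcripts cannot be told apart. Each knockdown array has its own GFP array according to the labels, and these tie the arrays into 3 control sets, of which control set 2 has no double knockdown array. Nothing states that the arrays of a group came from separate cultures, so the p-values rest on the spread among the arrays alone, and that spread may be technical.

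Values are log2 probe set levels made by the authors with RMA, which normalizes across arrays, so every difference is relative to the other genes and 1 unit is a doubling. Array medians lay between 4.40 and 4.46, and a gene was called expressed when its mean over all arrays was above 5.24, the median of all genes. The msl-2 level was 4.16 and 4.13 in the double knockdown, 6.19, 5.33 and 5.61 after Sxl RNAi and 4.32, 4.47 and 4.51 in GFP cells. The Sxl level was 6.65 and 7.37 in the double knockdown, 6.64, 6.09 and 6.93 after Sxl RNAi and 7.20, 7.01 and 6.99 in GFP cells, so that in double knockdown replicate 2 Sxl lay above its GFP control, against the label by which that array is named here. The arrays of control set 2 stood apart from the rest, at correlations of 0.985 to 0.988 with other arrays. Of 8 plasmatocyte markers, the blood cell type that Kc cells resemble, 6 were expressed, with a mean level over the list of 7.60 to 7.68 in the double knockdown, 7.49 to 8.24 after Sxl RNAi and 7.65 to 8.24 in GFP cells. Within that list Pxn was called higher than in GFP cells in the double knockdown (1.37) and after Sxl RNAi (1.39), and He was called lower after Sxl RNAi (-1.02), and their part in the results was not tested. Of the markers of other cell types, 2 of 3 measured for neurons, 1 of 4 for muscle, 0 of 3 for fat body and 2 of 11 for germ line and testis were expressed. The X-linked neuron marker elav (0.66) and the testis marker twe (0.30) were called higher after Sxl RNAi than in GFP cells. The other testis marker above the limit, bam, passed it through the arrays of control set 2 alone, at 7.43 after Sxl RNAi and 7.79 in GFP cells. In RNA from whole cultures, fewer cells of a type and less RNA per cell cannot be told apart.

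All 26 standard subunits were expressed, with mean levels between 10.09 (Rpn6) and 12.24 (Prosbeta3), which do not rank their abundance because each probe set has its own brightness. The brightest were Prosbeta3, a beta subunit without a protease site, and Prosbeta5, the chymotrypsin-like protease subunit, at 12.18. Their arrays were also close to each other: the median residual SD of the standard subunits was 0.0535, against 0.0868 for all 5991 expressed genes. That larger set begins at a level of 5.24, and no set matched for brightness was compared. By RefSeq, 8 of the standard subunits lie on 3R, 7 on 2R, 4 on 2L, 4 on 3L and 3 on the X. The X-linked ones are Prosalpha4 of the alpha ring and the ATPases Rpt3 and Rpt4.

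Rpn1, the base scaffold that docks ubiquitin receptors and deubiquitinases, had levels of 9.55 and 9.58 in the double knockdown, 10.09, 10.43 and 10.51 after Sxl RNAi and 10.80, 10.39 and 10.69 in GFP cells. Both double knockdown arrays lay below all 6 other arrays, whereas the Sxl RNAi and GFP arrays overlapped. The fitted difference was -1.18 ± 0.08 (SE) on the log2 scale for the double knockdown against GFP, or 2.27-fold lower, with -1.25 and -1.10 in the 2 pairs of a control set. It was -1.21 without double knockdown replicate 2, the array whose Sxl level was not low. Against Sxl RNAi it was -0.90, or 1.86-fold lower, with -0.88 and -0.93 in the pairs. Sxl RNAi against GFP gave -0.28, with -0.37, -0.31 and -0.17 in the pairs. These values led to the choice of the genes and are given as a description, with no test.

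**Figure D1:**
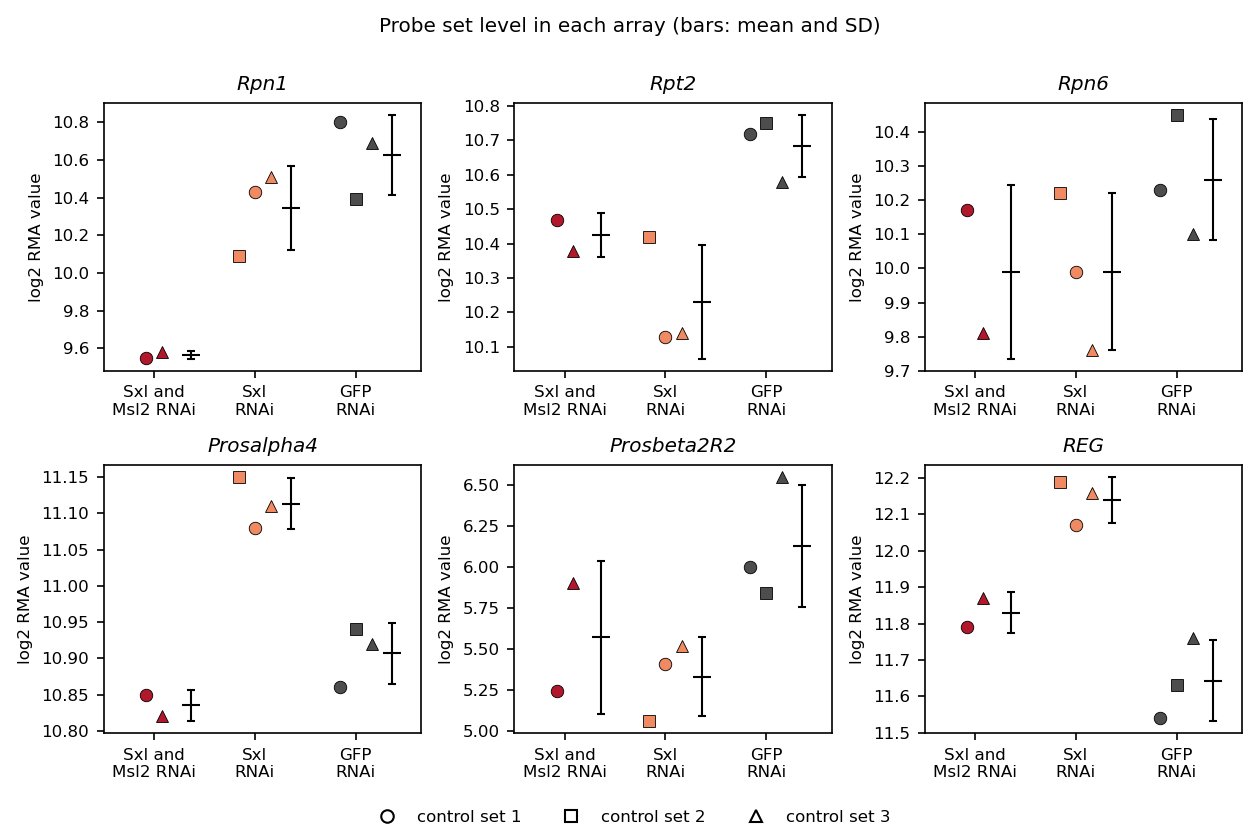
Log2 RMA value (y axis) of 6 probe sets in each of the 8 arrays, by RNAi treatment (x axis), where the marker shape is the control set and the black bars are the group mean and SD. Rpn1 is low in both double knockdown arrays (9.55 and 9.58), and Prosalpha4 and REG are highest in all Sxl RNAi arrays. By group mean Rpt2 is lowest after Sxl RNAi and Prosbeta2R2 is highest in GFP cells, but each of these groups overlaps the double knockdown arrays.

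In the double knockdown against GFP none of the other 25 standard subunits passed the test in limma at an adjusted p of 0.05. Of all genes tested 1.60% were called lower and 2.19% higher, and of the 5991 expressed genes 172 were called lower and 251 higher. At an unadjusted p of 0.05, 2 of the 25 passed, Rpn2 and Rpt2, against 27.1% of expressed genes. Rpn2, the second large scaffold of the base, had levels of 10.36 and 10.29 in the double knockdown, 10.42, 10.26 and 10.40 after Sxl RNAi and 10.61, 10.58 and 10.58 in GFP cells. The double knockdown arrays of Rpn2 lay below the GFP arrays and within the range of the Sxl RNAi arrays. Its difference from GFP was -0.25 ± 0.09 (SE; 95% interval -0.45 to -0.06; adjusted p = 0.167). It was called with limma's trend and robust options (adjusted p = 0.0451) and in none of 14 other alternatives, whose adjusted p reached 0.631. Rpt2, an ATPase that in yeast takes part in opening the gate of the core, differed by -0.20 (95% interval -0.39 to -0.003; adjusted p = 0.283).

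The per-gene, unadjusted 95% intervals show, for each of the 25 tested subunits, how far it could have followed Rpn1. They are no joint bound on the set. Of the 25, 23 intervals held 0, and the lowest limit of any was -0.45, for Rpn2, against the fitted -1.18 of Rpn1. The fitted differences ran from -0.25 (Rpn2) to 0.02 (Prosbeta5), and 22 of 25 lay below 0, against 49.2% of expressed genes. Of the 22 autosomal ones 19 lay below 0, against 52% of expressed autosomal genes. The median of the 25 was -0.05, while all genes tested had a median of 0.001 and expressed genes of 0.003. In 14 of the 25 the level was lower in both pairs of a control set, against 34% of expressed genes. In 7 of the 25 both double knockdown arrays lay below all GFP arrays, and in 0 above them, against 14.6% and 13.9% of expressed genes.

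The subcomplexes are described by their medians. The 12 core members had a median of -0.05 and a range of -0.15 to 0.02, and the 13 regulatory particle members other than Rpn1 a median of -0.07 and a range of -0.25 to 0.02. Within the regulatory particle the 6 base members other than Rpn1 had a median of -0.10, and all 6 lay below 0. The 7 lid members had a median of -0.04. In the pair of control set 1 the medians were -0.02 for the core and -0.07 for the regulatory particle without Rpn1, and in control set 3 they were -0.05 and -0.09. All expressed genes had a median of 0.037 in the pair of control set 1 and -0.027 in that of control set 3. The gaps between these medians were not tested.

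**Figure D2:**
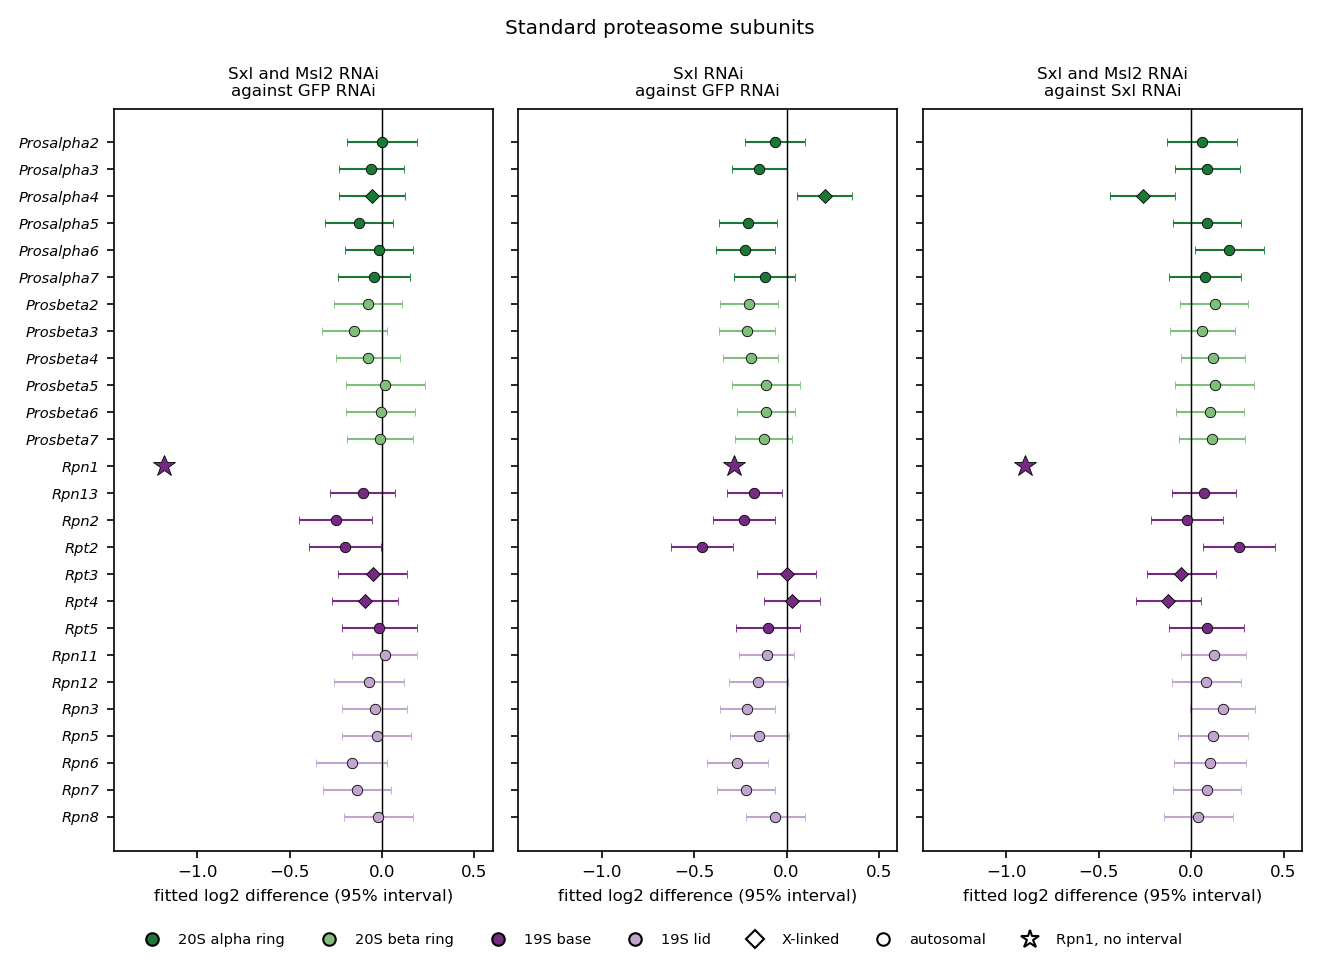
Fitted log2 difference (x axis) of each of the 26 standard subunits (y axis) in the 3 comparisons, with the 95% interval as a bar, coloured by subcomplex, with diamonds for X-linked genes and a star without an interval for Rpn1. In the double knockdown against GFP Rpn1 stands at -1.18 and the other 25 between -0.25 and 0.02.

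After Sxl RNAi 2 of the 25 standard subunits other than Rpn1 fell against GFP and none rose. Of all genes tested 4.35% were called lower and 5.98% higher (521 and 716 genes, or 330 and 912 after centring every array on its autosomal genes). Of the 5991 expressed genes, which include all standard subunits, 473 were called lower and 678 higher. The subunits that fell were Rpt2 of the base and Rpn6 of the lid. At an unadjusted p of 0.05 in limma, 6 of 12 core members passed in either direction. Of the 13 regulatory particle members other than Rpn1, 6 passed, and of expressed genes 37.3%. This comparison and the one above share the GFP arrays, so their values stand side by side and are not independent.

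Rpt2 had levels of 10.47 and 10.38 in the double knockdown, 10.42, 10.13 and 10.14 after Sxl RNAi and 10.72, 10.75 and 10.58 in GFP cells. All Sxl RNAi arrays lay below all GFP arrays, and the double knockdown arrays lay below GFP too. Sxl RNAi against GFP gave -0.46 ± 0.07 (SE), or 1.37-fold lower, with an adjusted p of 0.00484 in limma and -0.59, -0.34 and -0.44 in the 3 pairs. The call held without any single array. The double knockdown lay 0.26 above Sxl RNAi (95% interval 0.06 to 0.45; adjusted p = 0.303).

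Rpn6, the lid scaffold that clamps the regulatory particle to the core, had levels of 10.17 and 9.81 in the double knockdown, 10.22, 9.99 and 9.76 after Sxl RNAi and 10.23, 10.45 and 10.10 in GFP cells. The 3 groups overlapped. Within control sets Sxl RNAi lay lower in all 3 pairs, by -0.24, -0.22 and -0.34, and the fitted -0.27 ± 0.07 (SE) passed narrowly, with an adjusted p of 0.0489 in limma. Leaving out any 1 of the 8 arrays ended this call.

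**Figure D3:**
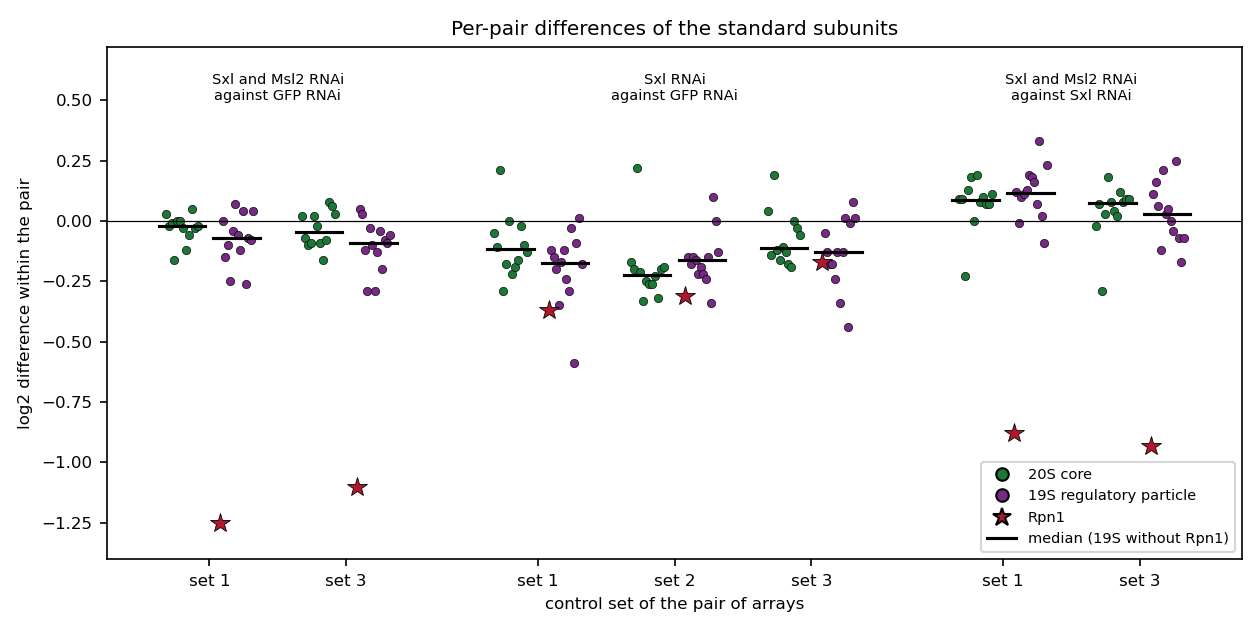
Log2 difference within each pair of arrays of a control set (y axis) for the 12 core and 14 regulatory particle subunits, by comparison and control set (x axis), with black lines at the medians (regulatory particle without Rpn1). Rpn1 (star) lies apart from all other subunits in the 2 pairs of double knockdown against GFP and in the 2 of double knockdown against Sxl RNAi, but not in the 3 pairs of Sxl RNAi against GFP.

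The other autosomal subunits lay lower by smaller amounts that did not pass. All 22 autosomal standard subunits other than Rpn1 had fitted differences below 0 after Sxl RNAi, from -0.46 (Rpt2) to -0.06, with a median of -0.164. Of the 4927 expressed autosomal genes 62.8% lay below 0, with a median of -0.051. In 17 of the 22 the level was lower in all 3 pairs, against 36.6% of expressed autosomal genes. Of the 25 subunits other than Rpn1, 14 had all Sxl RNAi arrays below all GFP arrays and 1 had all above, against 9.16% and 7.69% of expressed genes. The 95% intervals of 11 of the 25 lay below 0, of 1 above, and 13 held 0, while 18.7% of expressed genes had an interval below 0 and 18.6% above. Expressed genes had the larger median residual SD (0.0868 against 0.0535), and its part in these counts was not tested.

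Both particles had medians below 0, taken with their X-linked members (Prosalpha4 in the core, Rpt3 and Rpt4 in the regulatory particle). The core had a median of -0.135, with -0.118, -0.222 and -0.113 in the pairs of control sets 1, 2 and 3, and the regulatory particle without Rpn1 had -0.152, with -0.174, -0.161 and -0.130. Expressed autosomal genes had -0.051, with -0.028, -0.064 and -0.067 in the same pairs. Of the 6 measured beta subunits, which include the proteases Prosbeta2 and Prosbeta5, all lay below 0, from -0.21 to -0.11. Prosbeta3 had the lowest of these 6 differences. Its levels were 12.19 and 12.19 in the double knockdown, 12.16, 12.12 and 12.17 after Sxl RNAi and 12.31, 12.42 and 12.35 in GFP cells. Its 3 Sxl RNAi arrays lay below all others, and its difference from GFP was -0.21 (95% interval -0.36 to -0.06; adjusted p = 0.0819). Among the 7 lid members the fitted differences ran from -0.27 to -0.06. Rpn11, the deubiquitinase that removes ubiquitin chains from substrates, was at -0.11 (95% interval -0.26 to 0.04).

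How many subunits were called after Sxl RNAi depended on the fit. With dim genes left out before the fit, 25 standard subunits other than Rpn1 and 2 paralogues remained. Of these, 11 passed, 10 lower and 1 higher, against 11.3% lower and 13.4% higher of the 5991 genes then tested. With limma's trend and robust options 13 of the 39 members other than Rpn1 passed, 12 lower and 1 higher. Of all genes 6.07% and 6.95% did (11.3% and 13.2% of expressed genes). The one called higher was Prosalpha4 in both. Without the control set in the model none of the 39 passed.

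The 3 X-linked subunits had fitted differences of 0.00 to 0.21 after Sxl RNAi against GFP. Prosalpha4 had levels of 10.85 and 10.82 in the double knockdown, 11.15, 11.08 and 11.11 after Sxl RNAi and 10.86, 10.94 and 10.92 in GFP cells. All Sxl RNAi arrays lay above the other 5, and both double knockdown arrays lay just below the GFP arrays. Sxl RNAi against GFP gave 0.21 ± 0.07 (SE; 95% interval 0.06 to 0.36; adjusted p = 0.0894), with 0.21, 0.22 and 0.19 in the pairs. The double knockdown against Sxl RNAi gave -0.26 ± 0.08 (SE; 95% interval -0.44 to -0.08; adjusted p = 0.241), with -0.23 and -0.29 in the pairs.

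For Rpt3 and Rpt4, ATPases of the base, the interval of Sxl RNAi against GFP held 0 and overlapped that of Prosalpha4. Rpt3 had levels of 11.44 and 11.37 in the double knockdown, 11.23, 11.42 and 11.44 after Sxl RNAi and 11.51, 11.13 and 11.45 in GFP cells, with overlapping groups. Sxl RNAi against GFP gave 0.00 (95% interval -0.16 to 0.16). Rpt4 had levels of 11.21 and 11.23 in the double knockdown, 11.16, 11.30 and 11.40 after Sxl RNAi and 11.29, 11.16 and 11.32 in GFP cells, and gave 0.03 (95% interval -0.12 to 0.18). Over the 3 X-linked subunits the median was 0.031, against 0.230 for 1047 expressed X genes. In the double knockdown against GFP the 3 lay between -0.09 and -0.05, where expressed X genes had a median of 0.059. The double knockdown against Sxl RNAi gave -0.05 for Rpt3 (95% interval -0.239 to 0.135), with 0.02 and -0.07 in the pairs. For Rpt4 it gave -0.12 (95% interval -0.298 to 0.054), with -0.09 and -0.17 in the pairs. Expressed X genes had a median of -0.141 there.

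**Figure D4:**
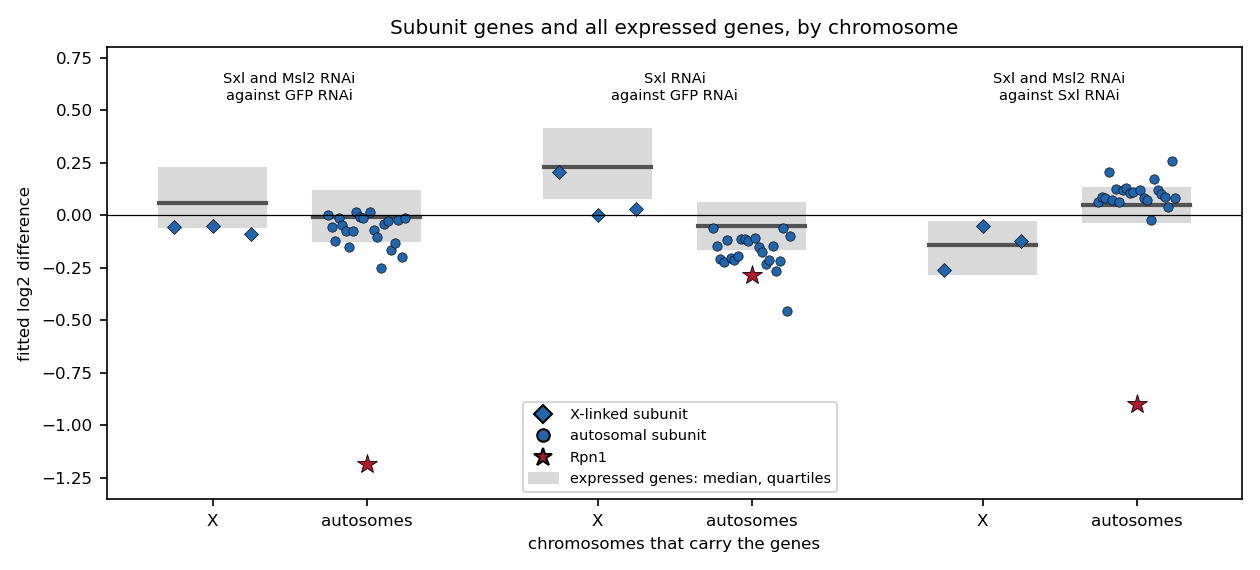
Fitted log2 difference (y axis) of the X-linked and autosomal standard subunits in the 3 comparisons (x axis), over grey boxes that give the median and quartiles of all expressed genes on the X or the autosomes. After Sxl RNAi against GFP the 3 X-linked subunits lie at 0.00 to 0.21 and the 22 autosomal ones other than Rpn1 (star) at -0.46 to -0.06.

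In the double knockdown against Sxl RNAi none of the 25 standard subunits other than Rpn1 passed. Of all genes tested 0.743% were called lower and 0.0334% higher, and of the 5991 expressed genes 88 were called lower and 3 higher. At an unadjusted p of 0.05, 3 of the 25 passed in limma, Rpt2 and Prosalpha6 higher and Prosalpha4 lower, against 16.6% of expressed genes. Of the 22 autosomal subunits other than Rpn1, 21 lay above 0, with a median of 0.096, and of the expressed autosomal genes 33.4% lay below 0, with a median of 0.050. The one below 0 was Rpn2, at -0.02. All 6 beta subunits lay above 0 in both pairs, from 0.06 to 0.13 in the fit. The 3 X-linked subunits lay below 0, from -0.26 to -0.05, where expressed X genes had a median of -0.141. In 8 of the 25 both double knockdown arrays lay above all Sxl RNAi arrays, and in 1 (Prosalpha4) below them, against 9.33% and 8.23% of expressed genes. The Sxl RNAi arrays enter this comparison and the one of Sxl RNAi with GFP, so the opposite signs of the autosomal subunits in the 2 are not independent.

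Of the 14 paralogues only Prosbeta2R2 and Rpt3R were expressed. The other 12 had mean levels of 3.84 to 4.37, below the array medians, so no signal above background was shown for them. The lowest were Prosbeta4R2, at 3.84, and Rpn12R, at 3.85, and those on the X were Prosbeta2R1, with a level between 4.24 and 4.55, and Rpn13R, between 3.91 and 4.07. None of the 12 passed in any comparison, at an adjusted or an unadjusted p of 0.05 in limma. The 11 germ line and testis markers had a mean level of 4.0 to 4.07 in the double knockdown, 3.99 to 4.21 after Sxl RNAi and 3.95 to 4.29 in GFP cells.

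Prosbeta2R2, a paralogue of the trypsin-like protease subunit Prosbeta2, gave the only calls among the paralogues. Its levels were 5.24 and 5.90 in the double knockdown, 5.06, 5.41 and 5.52 after Sxl RNAi and 6.00, 5.84 and 6.55 in GFP cells. Every Sxl RNAi array lay below every GFP array, and the double knockdown arrays overlapped both groups. Sxl RNAi against GFP gave -0.80 ± 0.10 (SE), or 1.74-fold lower, with an adjusted p of 0.00150 in limma and -0.60, -0.78 and -1.02 in the pairs. The double knockdown against GFP gave -0.70 ± 0.12 (SE), or 1.62-fold lower, with an adjusted p of 0.0144 and -0.76 and -0.64 in the pairs. Without either double knockdown array, or without GFP replicate 1 or 3, the second call was lost, and the lower values lie near the limit of 5.24 used for expression. Rpt3R, a paralogue of the ATPase Rpt3, had levels of 8.69 and 8.76 in the double knockdown, 8.61, 8.78 and 9.02 after Sxl RNAi and 8.81, 8.88 and 9.06 in GFP cells, and the double knockdown against GFP gave -0.25 (95% interval -0.46 to -0.04; adjusted p = 0.203).

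The probe set shared by Prosalpha1 and Prosalpha1R, which cannot be given to either gene, read 13.10 and 13.05 in the double knockdown, 12.82, 12.94 and 12.99 after Sxl RNAi and 13.04, 13.02 and 13.05 in GFP cells. The 3 Sxl RNAi arrays lay below all others.

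The subunits were read beside 3 lists of partner genes, 25 measured genes in all, each of them expressed. None passed in limma in the double knockdown against GFP or against Sxl RNAi. At an unadjusted p of 0.05, 8 passed against GFP, where 27.1% of expressed genes did, and 4 against Sxl RNAi, where 16.6% did. Of 7 assembly factors and partners, 2 rose and 1 fell after Sxl RNAi against GFP. Of all genes 5.98% were called higher and 4.35% lower (678 and 473 of the 5991 expressed genes). Both partners that rose are X-linked, and of expressed X genes 41.0% were called higher. REG, the X-linked gene of the PA28 gamma activator, an alternative cap of the core, had levels of 11.79 and 11.87 in the double knockdown, 12.19, 12.07 and 12.16 after Sxl RNAi and 11.54, 11.63 and 11.76 in GFP cells. The groups did not overlap, with Sxl RNAi on top and the double knockdown between. Sxl RNAi against GFP gave 0.50 ± 0.07 (SE; adjusted p = 0.00269), and the double knockdown against Sxl RNAi gave -0.30 (95% interval -0.49 to -0.11; adjusted p = 0.192). The X-linked shuttle receptor gene rngo rose by 0.26 (adjusted p = 0.0473), and PI31, the gene of a core-binding regulator, fell by 0.30 (adjusted p = 0.0394). Both lost their calls without any 1 of the 6 Sxl RNAi and GFP arrays, and rngo also without either double knockdown array.

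Of 11 measured genes for ubiquitin and its delivery none passed in any comparison in limma. At an unadjusted p of 0.05, 4 passed after Sxl RNAi against GFP, where 37.3% of expressed genes did. In the double knockdown 2 passed against GFP (27.1% of expressed genes) and 1 against Sxl RNAi (16.6%). The brightest, RpS27A, which encodes ubiquitin fused to a ribosomal protein, had levels of 14.30 and 14.30 in the double knockdown, 14.27, 14.23 and 14.26 after Sxl RNAi and 14.22, 14.30 and 14.25 in GFP cells, and Sxl RNAi against GFP gave 0.00 (95% interval -0.15 to 0.15).

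The cnc and Keap1 pathway was included because the related mammalian factor Nrf1 drives proteasome genes when the proteasome is impaired. Of its 7 measured genes, Keap1 rose and ref(2)P fell after Sxl RNAi against GFP. ref(2)P, the gene of a receptor that brings ubiquitinated proteins to autophagy, had levels of 10.89 and 10.58 in the double knockdown, 10.93, 10.84 and 10.55 after Sxl RNAi and 11.18, 11.30 and 10.92 in GFP cells. Its differences from GFP were -0.36 after Sxl RNAi (adjusted p = 0.00905) and -0.31 in the double knockdown (adjusted p = 0.0573), and the call was lost without Sxl RNAi replicate 2 or 3. Keap1, the gene of the inhibitor of Cnc, had levels of 7.47 and 7.92 in the double knockdown, 7.85, 7.53 and 7.96 after Sxl RNAi and 6.31, 7.61 and 7.56 in GFP cells. The difference of 0.62 between Sxl RNAi and GFP (adjusted p = 0.0427) was 1.23 in the pair with GFP replicate 1 and 0.24 and 0.40 in the others, and it was 0.33 without that array. The call was lost without GFP replicate 1, Sxl RNAi replicate 2 or 3 or either double knockdown array. The transcription factor gene cnc itself was at 0.11 in the double knockdown (95% interval -0.12 to 0.33) and at 0.13 after Sxl RNAi (95% interval -0.06 to 0.32), each against GFP. Without the control set in the model all 5 partner calls were lost, with adjusted p from 0.0764 (REG) to 0.717 (Keap1), PI31 also lost its call after centring every array on its autosomal genes (0.0906), and Keap1 with trend and robust options (0.0710).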

How the data were processed

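Total RNA of Kc cells was hybridised to 8 Affymetrix Drosophila arrays. The deposited log2 values, made by the authors with RMA, were not changed. The sources used here give neither the version of RMA nor its options. Of 18952 probe sets, 183 array controls were left out, and the 13647 with 1 gene symbol in the platform annotation gave 11983 genes (highest mean per gene). Of these, 11894 matched the RefSeq table of assembly Release 6 plus ISO1 MT, used for names and chromosome arms only.

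limma 3.58.1 (lmFit, eBayes) in R 4.3.3 was fitted to the 8 arrays together, with terms for group and for control set (3 residual and 6.53 prior degrees of freedom) after a check on simulated data. p-values were adjusted by Benjamini-Hochberg over all genes (threshold 0.05), and limma gave every adjusted p. The 95% intervals are per gene and unadjusted. Arrays of a control set, a pairing that the labels give, deviated together (r from 0.376 to 0.893), and arrays that share only a title number did not (r from -0.738 to 0.0767). Deviations were taken from the group means, so those of a group cancel out and the 2 double knockdown arrays mirror each other. These ranges of r are therefore not independent.

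The members, gene lists and rules were chosen with earlier results of these data known. Named were Rpn1, every member called, the X-linked members, the 2 brightest and 2 dimmest, and the called or brightest members of each partner list. Rpn2, Rpt3R, Prosbeta3, Rpn11, the shared probe set and cnc were named after their values were seen. Alternatives changed the block, the arrays, the centring, the filter on dim genes, the probe sets and the eBayes options. No sequence or promoter motif was analysed here.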

Additional observations from a re-analysis of the deposited data

How the results depend on the processing

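Medians of the core and of the regulatory particle kept their sign under every alternative. Among the named values with alternatives, those that changed sign were uncalled and near 0: Rpt3 after Sxl RNAi against GFP was -0.049 without control set 2 and -0.049 to 0.046 without 1 array, RpS27A in the same comparison was -0.011 to 0.014 without 1 array, and cnc in the double knockdown against GFP was -0.019 to 0.232 without 1 array. The called counts refer to the 39 members other than Rpn1, of which 12 dim paralogues are absent from the fit with dim genes left out. Without a replicate block for the control set, and with a replicate block by title number, no member was called in any of the 3 comparisons (0), where the main fit called 1, 3 and 0 in the double knockdown against GFP, Sxl RNAi against GFP and the double knockdown against Sxl RNAi. With trend and robust options the counts were 2 (Prosbeta2R2 and Rpn2), 13 and 1 (Prosalpha4), and with dim genes left out, which leaves fewer genes to adjust over, the second was 11. Prosalpha4 after Sxl RNAi then passed (adjusted p = 0.0143 and 0.0397), and also after centring every array on its autosomal genes (0.0439). Leaving out 1 array gave 0 to 1, 2 to 2 and 0 to 0 calls.

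For the double knockdown against GFP, the core median of -0.049 was -0.006 with the title-number block, -0.029 without control set 2 and -0.076 to -0.029 without 1 array. The regulatory particle median of -0.081 was -0.059 without the block, -0.057 with the title-number block and -0.114 to -0.072 without 1 array. With Rpn1 left out, an alternative chosen after seeing the data, it was -0.070. For the double knockdown against Sxl RNAi, the core median of 0.097 was 0.118 without the block, 0.145 with the title-number block, 0.079 without control set 2, 0.044 with centring and 0.079 to 0.127 without 1 array. For Sxl RNAi against GFP the regulatory particle median of -0.164 was -0.120 with centring. The cause of these moves was not tested. With 2 double knockdown arrays and 3 residual degrees of freedom, single subunits' unadjusted 95% intervals had a median half-width of 0.18 in both double knockdown comparisons. Differences below about that size had intervals that held 0. A call at the adjusted threshold needed more: -0.25 for Rpn2 against GFP and -0.26 for Prosalpha4 against Sxl RNAi did not pass in the main fit.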
